A study of Drosophila melanogaster with 12 samples.

Results

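The comparison described here is the departure from additivity of 2 transgenes in the Drosophila larval eye disc, that is, whether the expression difference made by miR-11 is the same with and without dE2F1 and dDP. All 12 arrays of the series enter it, 3 biological replicates of each of 4 genotypes, and all 18769 probe sets outside the Affymetrix controls, of 18952 in the value table, were tested. RNA came from eye discs of the third larval instar of flies kept at 25 degrees Celsius. Every genotype carried GMR-Gal4, which drives expression behind the morphogenetic furrow. The dE2F1,dDP,miR-11 discs were GMR-Gal4/UAS-miR-11 with UAS-dE2F1,UAS-dDP/+ and the dE2F1,dDP discs were GMR-Gal4/+ with UAS-dE2F1,UAS-dDP/+. The miR-11 discs were GMR-Gal4/UAS-miR-11, and the WT discs, GMR-Gal4/+, had the driver and no UAS transgene. Whole discs were profiled, so cells ahead of the furrow, where the driver is silent, are in every sample. In such bulk RNA, fewer cells of a type and less RNA per cell cannot be told apart. The replicates are labelled biological, with nothing on how many larvae made each.

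E2F proteins bind DNA together with a DP partner and switch on genes for S phase and mitosis, and dE2F1 with dDP is the activating pair in flies. Excess dE2F1 in the eye also sets off cell death. The mir-11 gene lies in an intron of the dE2F1 gene in flies, and its microRNA is known to lower the fly proapoptotic genes rpr and hid (W in the older naming) and to dampen cell death caused by dE2F1. On a log2 scale, additivity means that the level with all the transgenes equals the miR-11 level plus the dE2F1,dDP level minus the WT level. The departure is the measured level minus that additive level. A positive departure means that discs with all the transgenes stood above it.

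The files hold 2 sources made by the authors, log2 expression per probe set on each array, without gene names, and a table of average log2 changes per gene over WT. Neither pairs probe sets with genes, so array values are given by probe set and genes are given from the table, which has no values per array. The departures of named genes therefore carry no SD, SE or test. The labelled tissue could not be checked against marker levels for the same reason. Arrays differed widely within genotypes. Of the variance, 63.1% lay on the first principal component, whose own departure was -6.48 with an SE of 48.2. Its mean score was -16.1 ± 16.2 in dE2F1,dDP,miR-11 discs, -20.1 ± 47.3 in dE2F1,dDP discs, 23.3 ± 58.7 in miR-11 discs and 12.9 ± 32.2 in WT discs (SD, n = 3 each).

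On the arrays, 9 probe sets departed from additivity, 6 upward (0.032%) and 3 downward (0.016%), by limma's test of the interaction with a Benjamini-Hochberg adjusted p under 0.05. That is 0.048% of the probe sets tested, and 312, or 1.66%, had an unadjusted p under 0.05. In 7 of the 9, a single genotype stood at least 1 log2 unit away from the other 3, which lay within 1 unit of each other, a description chosen after the values were seen. The lone genotype was WT in 3 of them, miR-11 in 3 and dE2F1,dDP in 1. In none of the 9 called probe sets did the discs with all the transgenes stand alone.

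**Figure D1:**
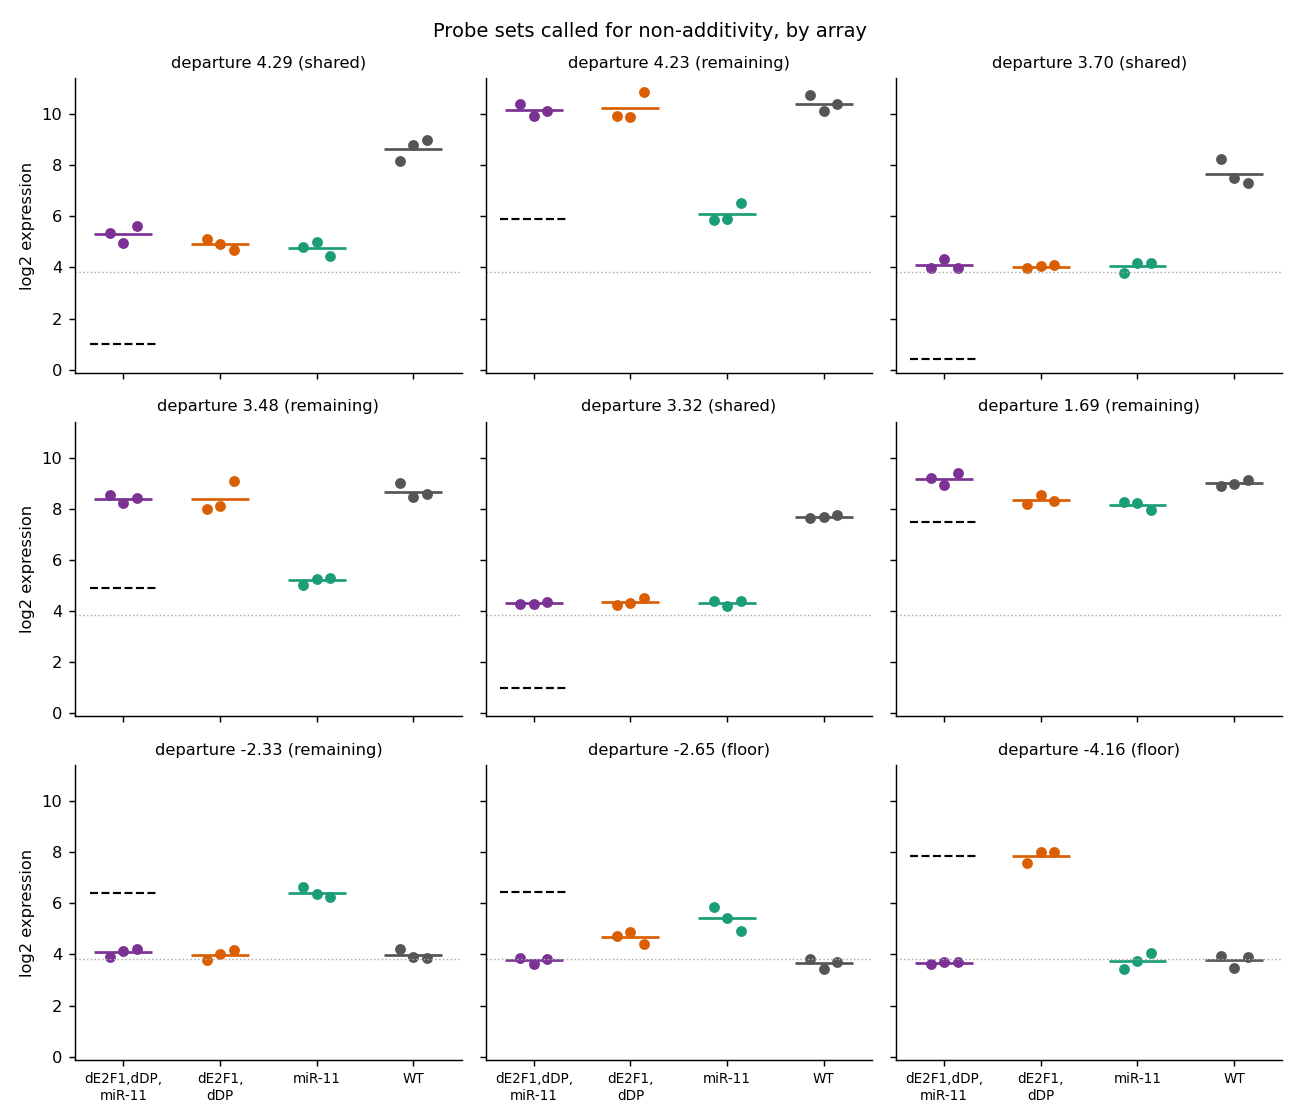
Log2 expression (y axis) of the 9 probe sets called for non-additivity, with a point per array and a bar at the genotype mean (n = 3); the dashed line is the additive level for dE2F1,dDP,miR-11 discs and the dotted line the floor of 3.84. The 3 panels marked shared have WT arrays far above all others and an additive level below the floor, and in the other panels the additive level lies above the floor.

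Each departure was read against a floor, set at 3.84, the mean over arrays of the 25th percentile of all probe sets. A departure was called shared where all 3 transgenic genotypes differed from WT in the same direction at an adjusted p under 0.05. It was placed at the floor where it was not shared and a genotype mean or the additive level lay at or below 3.84. By this rule 3 of the 9 departures were shared, 2 lay at the floor and 4 remained.

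The 3 shared departures were falls that every transgenic genotype had alike. Probe set 1624543_s_at measured 5.33, 4.96 and 5.60 in dE2F1,dDP,miR-11 discs, 5.11, 4.90 and 4.69 in dE2F1,dDP discs, 4.81, 5.01 and 4.47 in miR-11 discs, and 8.17, 8.81 and 8.99 in WT discs. The 9 transgenic arrays were all low and overlapped each other, and the lowest WT array stood at 8.17. Its departure was 4.29 (SE 0.34, limma adjusted p = 0.00112), while miR-11 added to dE2F1,dDP made a difference of 0.40 (adjusted p = 1.0 by limma). The other two shared probe sets departed by 3.70 (SE 0.32, limma adjusted p = 0.00185) and 3.32 (SE 0.14, limma adjusted p = 5.33e-06). Each part of the transgenes alone already differed from WT by -3.33 to -3.89, so the additive level was 1.01 or lower in all 3, below the floor. Over all probe sets 12 were called for dE2F1,dDP over WT (0.0639%) and 17 for all the transgenes over WT (0.0906%). The difference made by miR-11 on top of dE2F1,dDP lay between -0.05 and 0.40 in the 3.

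Another 3 departures belonged to miR-11 discs alone, although discs with all the transgenes carry UAS-miR-11 too. Probe set 1629242_x_at measured 10.39, 9.91 and 10.13 in dE2F1,dDP,miR-11 discs, 9.92, 9.88 and 10.87 in dE2F1,dDP discs, 5.87, 5.91 and 6.51 in miR-11 discs, and 10.73, 10.11 and 10.39 in WT discs. The 3 miR-11 arrays were low and the other 9 overlapped. Its departure was 4.23 (SE 0.41, limma adjusted p = 0.00334). The miR-11 difference was -0.08 on top of dE2F1,dDP (limma adjusted p = 1.0), against -4.31 over WT (limma adjusted p = 0.000103). A second probe set had the same shape, with means of 8.38 ± 0.16 in dE2F1,dDP,miR-11 discs, 8.38 ± 0.60 in dE2F1,dDP discs, 5.19 ± 0.15 in miR-11 discs and 8.67 ± 0.30 in WT discs (SD, n = 3; departure 3.48, limma adjusted p = 0.00817). The third was the reverse, at 4.09 ± 0.16 in dE2F1,dDP,miR-11 discs, 3.98 ± 0.20 in dE2F1,dDP discs, 6.42 ± 0.21 in miR-11 discs and 3.99 ± 0.19 in WT discs (SD, n = 3; departure -2.33, limma adjusted p = 0.00334). These 3 were among the 4 that remained, though the last has 3 of its means within the lowest signals and joins the floor class when the floor is set at 4.78, the mean of the array medians.

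The largest called departure below additivity came from dE2F1,dDP discs alone. Probe set 1628052_at measured 3.63, 3.72 and 3.70 in dE2F1,dDP,miR-11 discs, 7.59, 7.99 and 8.01 in dE2F1,dDP discs, 3.44, 3.76 and 4.05 in miR-11 discs, and 3.95, 3.48 and 3.89 in WT discs. Only the 3 dE2F1,dDP arrays were high, and the other 9 lay around the floor. Its departure was -4.16 (SE 0.26, limma adjusted p = 0.000154). The additive level was 7.84, above the floor. The exact size is uncertain, since 3 of the 4 means are at the floor.

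In 2 of the 9, no genotype stood alone by that description. Probe set 1631349_s_at measured 3.87, 3.63 and 3.83 in dE2F1,dDP,miR-11 discs, 4.73, 4.90 and 4.42 in dE2F1,dDP discs, 5.85, 5.44 and 4.94 in miR-11 discs, and 3.83, 3.44 and 3.71 in WT discs. Both genotypes with part of the transgenes were higher than both others, with no overlap. The means of 3.78 in dE2F1,dDP,miR-11 discs and 3.66 in WT discs lie below the floor, so the size is uncertain here too. Its departure was -2.65 (SE 0.31, limma adjusted p = 0.0137), and it kept its call in 4 of the 12 fits that left out an array. The other of the 2 had the opposite shape at high signal, with means of 9.17 ± 0.23 in dE2F1,dDP,miR-11 discs, 8.34 ± 0.18 in dE2F1,dDP discs, 8.14 ± 0.18 in miR-11 discs and 9.0 ± 0.13 in WT discs (SD, n = 3). Its departure was 1.69 (95% confidence interval 1.22 to 2.17, limma adjusted p = 0.0257), with all arrays far above the floor and none of the 5 simple differences called. It kept its call in 3 of the 12 fits, against all 12 for each of the 7 outside this pair.

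Most large departures on the arrays were not called, and the uncalled ones had a wider median spread between replicates. Departures of at least 1 in size were found in 203 probe sets, 73 positive (0.389% of those tested) and 130 negative (0.693%), and 194 of them were not called. The balance of directions varied with the arrays. Positive departures were the more numerous without miR-11 replicate 1 (291 and 192 negative) and without WT replicate 1 (211 and 175). The same held without dE2F1,dDP replicate 1 and miR-11 replicate 2 together (138 and 106). Without any other single array negative ones were more numerous, such as 125 against 119 without dE2F1,dDP replicate 1. They numbered 255 against 77 without miR-11 replicate 3 and 272 against 90 without dE2F1,dDP replicate 3. The residual SD within genotypes had a median of 0.28 in the 9 called probe sets and 0.86 in the 194 uncalled, against 0.21 over all. The test sets a departure against an SE built from this spread. Among large departures a call therefore itself favours a narrow spread, and no conclusion is drawn from the contrast. Of the 203, 5 were shared and 14 lay at the floor, so the floor class did not hold most of them. The shared class requires a call over WT in each transgenic genotype, and only 12 probe sets were called for dE2F1,dDP over WT. The shared count therefore could not reach most of the 203, and no conclusion is drawn from it. By the description of lone genotypes, which uses size only, WT stood high alone in 13 of the 203 and low alone in 5. The additive level fell below the floor in 13 of the 203, all with a positive departure. A negative one would need a measured level at least 1 below an additive level already under the floor. The sign is therefore no result of its own.

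**Figure D2:**
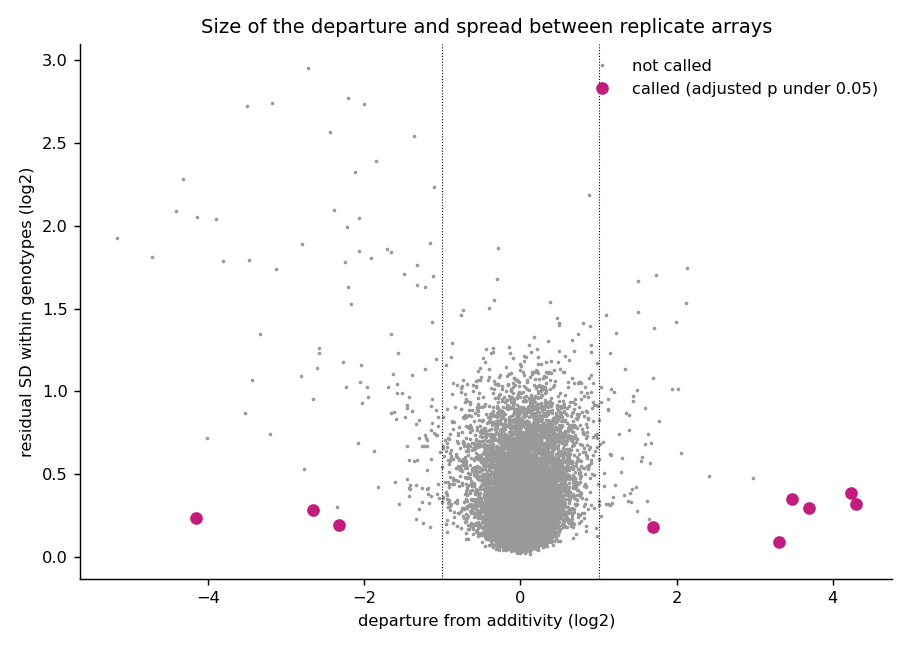
Departure from additivity in log2 units (x axis) against the residual SD within genotypes (y axis) for each of 18769 probe sets, with the 9 called ones as large points and dotted lines at departures of 1 and -1. The called probe sets have residual SDs of 0.39 or less, whereas most of the largest negative departures have residual SDs above 1.5. The test itself favours probe sets with a small residual SD.

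The most negative departure of all shows how few arrays can carry one. That probe set measured 7.03, 4.66 and 5.68 in dE2F1,dDP,miR-11 discs, 11.51, 7.56 and 7.09 in dE2F1,dDP discs, 7.60, 11.99 and 7.55 in miR-11 discs, and 7.93, 6.51 and 6.0 in WT discs. Replicate 1 of dE2F1,dDP and replicate 2 of miR-11 stood apart at 11.51 and 11.99, and the other 10 arrays lay between 4.66 and 7.93. Its departure of -5.16 (SE 1.98) was not called (limma adjusted p = 1.0), and was -2.30 without those 2 arrays. Among the 9 probe sets with a departure of at least 4 in size, the 5 with a negative departure and these same 2 arrays highest in their groups departed by -4.14 to -5.16, and by -1.08 to -2.30 without both arrays. Probe set 1624543_s_at also had both highest, within a narrow spread, and departed by 4.52 without them.

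In the authors' deposited table, 172 of 13281 genes departed by at least 1 (1.3%), 65 upward (0.489%) and 107 downward (0.806%). The departures of that table had a median of 0.03 over all genes and an SD of 0.33 across genes, and 12297 genes (92.6%) lay within 0.5 of additivity. Of the 172, 15 had changes of at least 1 with the same sign in all 3 comparisons with WT in the authors' deposited table, 12 with falls and 3 with rises, and 157 did not. Among the 107 genes below additivity in the authors' deposited table, 36 stood high in miR-11 discs alone, 3 in dE2F1,dDP discs alone, and 3 each had dE2F1,dDP,miR-11 discs low or WT discs low alone. Among the 65 above it in the authors' deposited table, 12 were high in dE2F1,dDP,miR-11 discs alone and 11 in WT discs alone, with 1 each for miR-11 and dE2F1,dDP discs low alone. No lone genotype stood out in 62 below and 40 above additivity in the authors' deposited table.

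**Figure D3:**
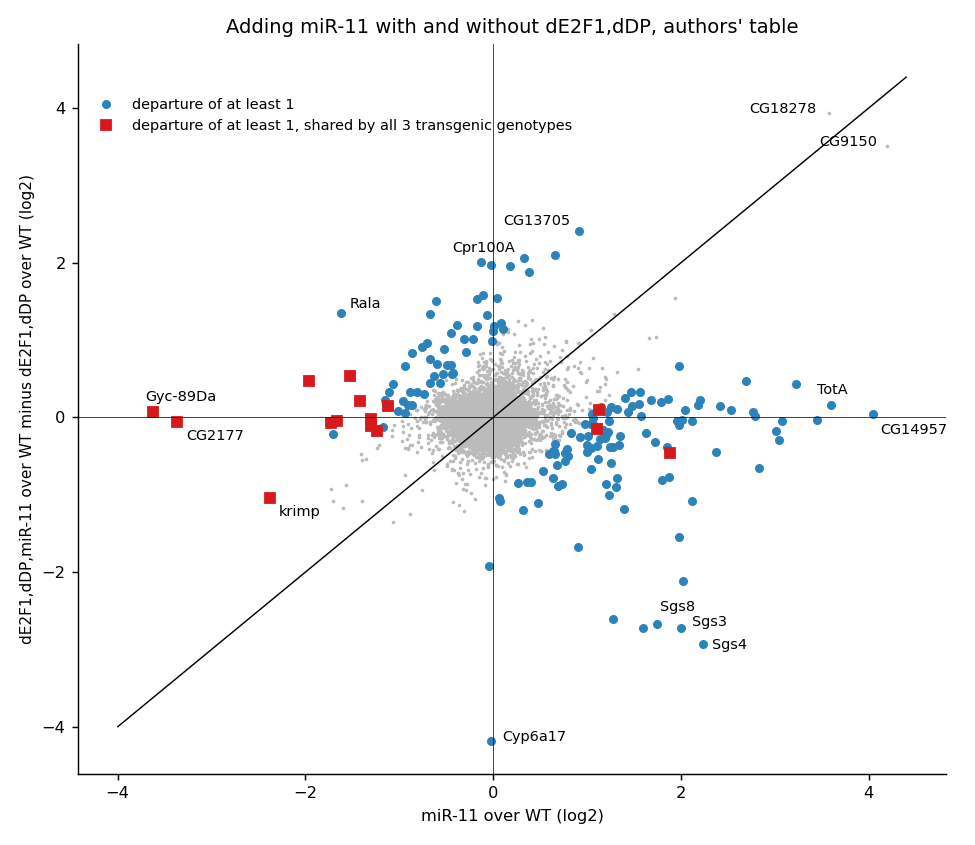
Log2 change over WT with miR-11 alone (x axis) against the log2 difference that miR-11 made on top of dE2F1,dDP (y axis) for the 13281 genes of the authors' deposited table; additive genes lie on the diagonal line, and the vertical distance from it is the departure. CG18278 and CG9150 lie near the line at the upper right, the glue genes Sgs4, Sgs3 and Sgs8 lie far below it, and Gyc-89Da and CG2177 sit near 0 on the y axis at the far left.

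Glue protein genes had the largest departures of the authors' deposited table. They encode the salivary secretion that fixes the pupa to its substrate, and they are markers of the salivary gland and not of the eye disc. In the authors' deposited table Sgs4 stood at log2 -1.02 over WT in dE2F1,dDP,miR-11 discs, 1.91 in dE2F1,dDP discs and 2.23 in miR-11 discs, a departure of -5.16. Sgs3 had -0.95, 1.77 and 2.0 over WT in the same order and a departure of -4.72 in the authors' deposited table. Both genes were called higher with each part of the transgenes, at the authors' estimated proportion of false positives (pfp) under 0.05, and neither was called with all of them. Sgs8 (log2 -1.82, pfp = 0.021), Sgs7 (-1.75, pfp = 0.0179) and Sgs5 (-1.52, pfp = 0.0308) fell in dE2F1,dDP,miR-11 discs in the authors' deposited table. With miR-11 alone those 3 stood between 1.28 and 1.74 and had no call in the authors' deposited table, and their departures were -4.42, -3.89 and -4.32. Eig71Ee, a late ecdysone puff gene, departed by -4.14 in the authors' deposited table.

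The salivary gland list was mostly below additivity. Of its 12 genes in the authors' deposited table, 0 departed upward and 10 departed downward by at least 1, with a median of -3.24 beside 0.03 for all genes. Its median change over WT in the authors' deposited table was -1.26 in dE2F1,dDP,miR-11 discs, 0.86 in dE2F1,dDP discs and 1.44 in miR-11 discs. The exceptions were fkh, a transcription factor gene of the gland, at -0.03, and ng4 at -0.12 in the authors' deposited table. Unlike Sgs3, Sgs4, Sgs5, Sgs7 and Sgs8, the genes ng1, ng3 and Pig1 stood below WT in dE2F1,dDP discs, at -0.79, -1.35 and -1.59 in the authors' deposited table. The 4 most negative departures over the arrays, -5.16, -4.72, -4.42 and -4.32, have the same sizes as those of Sgs4, Sgs3, Sgs8 and Sgs5 in the authors' deposited table. The files do not pair them, so no array value was assigned to a gene. Those 4 probe sets were not called (limma adjusted p = 1.0 in each) and had the same 2 arrays highest. The part of carried-over salivary tissue in these departures was not tested.

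Genes of the fat body list departed downward less uniformly. Of 12 genes in the authors' deposited table, 4 were below -1 and 2 above 1, with a median of -0.52. The 2 above 1, Cyp4g1 (2.43) and Obp44a (1.63), are both shared falls, and whether they mark the fat body was not tested. Yp1 (0.00) and Yp2 (0.11) lay near additivity, and the other 8 genes departed downward. The storage protein gene Lsp1gamma rose with miR-11 alone (log2 1.87) and stood at -0.10 in dE2F1,dDP,miR-11 discs and 0.68 in dE2F1,dDP discs, a departure of -2.65 in the authors' deposited table. The odorant binding protein gene Obp99b also rose with miR-11 alone (1.98) and departed by -2.07 in the authors' deposited table. The hemocyte list had 0 of 9 genes beyond 1 in either direction in the authors' deposited table, and a median of 0.03.

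Several genes rose with miR-11 alone and not with all the transgenes. CG14957 stood at log2 0.13 over WT in dE2F1,dDP,miR-11 discs, 0.08 in dE2F1,dDP discs and 4.05 in miR-11 discs, a departure of -4.01 in the authors' deposited table. The gene TotA encodes a secreted peptide of the stress response. It had -0.64, -0.80 and 3.60 in that order and a departure of -3.44 in the authors' deposited table. CG12310 fell in dE2F1,dDP,miR-11 discs (-1.64), stood at -0.98 in dE2F1,dDP discs and rose in miR-11 discs (2.83), departing by -3.49 in the authors' deposited table. CG17145 departed by -3.52 in the authors' deposited table and rose in dE2F1,dDP discs (1.26) as well as in miR-11 discs (1.98), with -0.28 in dE2F1,dDP,miR-11 discs. TotA was the only one of 15 genes on the heat shock and stress list to depart by at least 1, and the list median was 0.06 in the authors' deposited table. On the arrays 41 of the 203 probe sets with a large departure were high in miR-11 discs alone.

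In dE2F1,dDP discs alone, Cyp6a17, a cytochrome P450 gene, rose by log2 4.09 and stood at -0.09 in dE2F1,dDP,miR-11 discs and -0.02 in miR-11 discs in the authors' deposited table. Its departure of -4.16 makes it the largest of the genes with a lone genotype in the authors' deposited table. The sugar transporter gene sut2 had the same shape, with -0.03 in dE2F1,dDP,miR-11 discs, a rise of 1.89 in dE2F1,dDP discs and -0.05 in miR-11 discs in the authors' deposited table.

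Genes above additivity without a shared fall were led by Rala and by genes high with all the transgenes. Rala, a small GTPase gene of the Ras family, stood at log2 0.15 over WT in dE2F1,dDP,miR-11 discs and -1.20 in dE2F1,dDP discs, and fell in miR-11 discs (-1.63), a departure of 2.97 in the authors' deposited table. CG13705 rose by 2.41 in dE2F1,dDP,miR-11 discs, against 0.00 in dE2F1,dDP discs and 0.91 in miR-11 discs, and departed by 1.5 in the authors' deposited table. Cpr100A, a cuticle protein gene, rose by 1.81 and departed by 1.73 in the authors' deposited table. CG7203, CG14374, CG4019 (now Eglp4, an aquaporin family gene) and CG9297 rose in dE2F1,dDP,miR-11 discs by 1.27 to 1.76 and departed by 1.71 to 2.13 in the authors' deposited table. A different shape was seen in another pair. CG8533 (now Ir76a, an ionotropic receptor gene) fell in miR-11 discs (-1.71; departure 1.49), and Dms, a myosuppressin peptide gene, fell in dE2F1,dDP discs (-1.36; departure 1.60) in the authors' deposited table.

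Muscle and glycolysis genes leaned the same way. Over all 13281 genes of the authors' deposited table, 7318 departed upward and 65 of them by at least 1. Of 14 muscle genes 13 departed upward, 3 of them by at least 1, with a median of 0.47 in the authors' deposited table. Their median change over WT there was 0.70 in dE2F1,dDP,miR-11 discs, 0.13 in dE2F1,dDP discs and 0.13 in miR-11 discs in the authors' deposited table. Mlp60A, a gene of the same list, has 3 entries there, which were not counted and departed by -0.28, -0.08 and 0.45. Prm (paramyosin) and Mhc (muscle myosin heavy chain) rose with all the transgenes (1.36 and 1.33) and departed by 1.12 and 1.04 in the authors' deposited table. All 13 glycolysis genes departed upward, with a median of 0.52, and GlyP, glycogen phosphorylase, rose with all the transgenes (1.34) and departed by 1.33 in the authors' deposited table. All 8 glial genes departed upward as well, with a median of 0.33, led by the transporter gene Mdr65 at 1.38 in the authors' deposited table. Their shape differed, with median changes over WT of 0.11 in dE2F1,dDP,miR-11 discs, -0.01 in dE2F1,dDP discs and -0.26 in miR-11 discs. Mdr65 stood at 0.06, -0.16 and -1.15 in the same order in the authors' deposited table. The part of muscle carried along with the discs was not tested.

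**Figure D4:**
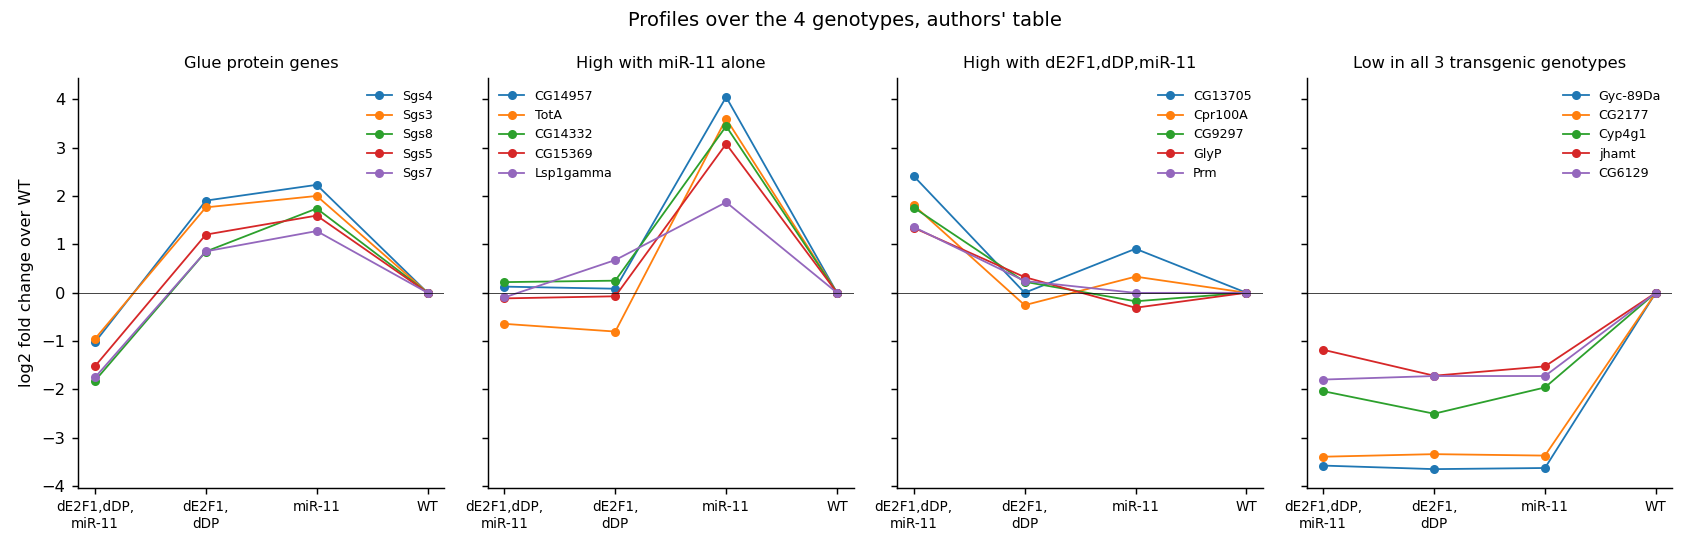
Log2 change over WT (y axis) in each genotype (x axis, WT at 0) for genes of the authors' deposited table in 4 shapes, with lines that only join the values of a gene. The glue genes shown were high in both genotypes with part of the transgenes and low with all of them. The second group stood high in miR-11 discs alone and the third in dE2F1,dDP,miR-11 discs alone. The fourth was low in all 3 transgenic genotypes.

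Falls shared by the transgenic genotypes made the 2 largest positive departures of the authors' deposited table. Gyc-89Da, a soluble guanylyl cyclase gene, fell by log2 3.58 in dE2F1,dDP,miR-11 discs, 3.65 in dE2F1,dDP discs and 3.63 in miR-11 discs, which gives a departure of 3.70 in the authors' deposited table. CG2177 (now Zip102B, a zinc transporter gene) stood at -3.39, -3.34 and -3.37 in the same order, with a departure of 3.32 in the authors' deposited table. Cyp4g1, a cytochrome P450 of cuticular hydrocarbon synthesis, departed by 2.43 in the authors' deposited table. It was followed there by jhamt, an enzyme of juvenile hormone synthesis, at 2.06 and CG6129 (now Root) at 1.65 in the authors' deposited table. The piRNA factor gene krimp stood at -2.09 in dE2F1,dDP,miR-11 discs, -1.05 in dE2F1,dDP discs and -2.38 in miR-11 discs, with a departure of 1.34 in the authors' deposited table. For each of these the added difference of miR-11 on top of dE2F1,dDP was within 0.54 of 0 in the authors' deposited table, except krimp at -1.04.

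Shared rises were fewer. CG15678, now pirk, an inhibitor of the fly Imd immune pathway, rose by 1.34 in dE2F1,dDP,miR-11 discs, 1.80 in dE2F1,dDP discs and 1.89 in miR-11 discs, a departure of -2.35 in the authors' deposited table. Sema-1a, an axon guidance gene, departed by -1.26 and CG30017 by -1.04 in the authors' deposited table. The white gene w, whose mini copy marks many transgenes, stood at 2.58 in dE2F1,dDP,miR-11 discs, 2.35 in dE2F1,dDP discs and 1.19 in miR-11 discs, a departure of -0.96 in the authors' deposited table. Floor levels could not be read for genes, since that table gives changes and no levels.

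The transgene's own Dp was additive. It rose by log2 2.73 in dE2F1,dDP,miR-11 discs and 2.85 in dE2F1,dDP discs and stood at -0.29 in miR-11 discs, a departure of 0.17 in the authors' deposited table. The dE2F1 gene itself, E2f, stood at 0.33 in dE2F1,dDP,miR-11 discs, 0.34 in dE2F1,dDP discs and 0.04 in miR-11 discs in the authors' deposited table. It had no call in any comparison there, so no rise from UAS-dE2F1 was detected. Its departure of -0.05 therefore says little about additivity of that transgene.

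Listed cell death genes had no departure of 1 or more, where only 1.3% of all genes had one in the authors' deposited table. Counts of 0 on lists of this size therefore do not set them apart from genes in general. In the authors' deposited table rpr, which blocks apoptosis inhibitors, departed by 0.14, W by -0.35, grim by 0.18 and skl by 0.43. Of the 18 listed cell death genes in the authors' deposited table, 0 departed by 1 or more, with a range of -0.80 to 0.43 and a median of -0.01. The 4 named genes had no call in any comparison of the authors' deposited table. The E(spl) complex and Bearded family, Notch pathway genes with 17 members in the authors' deposited table, also had 0 beyond 1 and a median of 0.10.

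Cell cycle genes sat slightly above additivity as lists, with no large departure. Replication and S phase genes were positive in 24 of 31 (median 0.17, highest 0.65), G2 and mitosis genes in 26 of 32 (median 0.13, highest 0.55) and E2F, Rb and dREAM genes in 11 of 13 (median 0.14, highest 0.51) in the authors' deposited table. Over all genes there, 7318 of 13281 were positive, with a median of 0.03 and an SD of 0.33 across genes. These lists had 0 members beyond 1 in either direction in the authors' deposited table, where 1.3% of all genes departed by at least 1. The replication list stood at a median of 0.31 in dE2F1,dDP,miR-11 discs, 0.29 in dE2F1,dDP discs and -0.13 in miR-11 discs in the authors' deposited table, and the mitosis list at 0.19, 0.28 and -0.25.

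Eye and antennal genes had no departure beyond 1, where only 1.3% of all genes departed by at least 1 in the authors' deposited table. Counts of 0 on lists of this size therefore do not set them apart from genes in general. Retinal determination genes (15, median -0.04), photoreceptor genes (20, median -0.07), cone and pigment cell genes (7, median -0.06) and antennal genes (5, median 0.05) had 0 members beyond 1 in the authors' deposited table, with a range over the 4 lists of -0.69 to 0.67. Ring gland and neuroendocrine genes also had 0 of 11 beyond 1 (median -0.17) in the authors' deposited table, and 5 of them fell with all the transgenes, beside 0.617% of all genes. On the ecdysone list the puparial gene ImpL1 alone passed 1, at 2.02, with 17 members and a median of -0.08 in the authors' deposited table. The antimicrobial peptide list had 2 of 9 above 1, Def (1.17) and AttD (1.07, one of the shared falls), and CecB below -1 (-1.22) in the authors' deposited table. AttA, an attacin gene of the same list, has 2 entries in the authors' deposited table, which were not counted and departed by -1.58 and -1.52. The microRNA and piRNA list had a median of 0.14 over 14 genes, and krimp alone beyond 1 in the authors' deposited table.

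**Figure D5:**
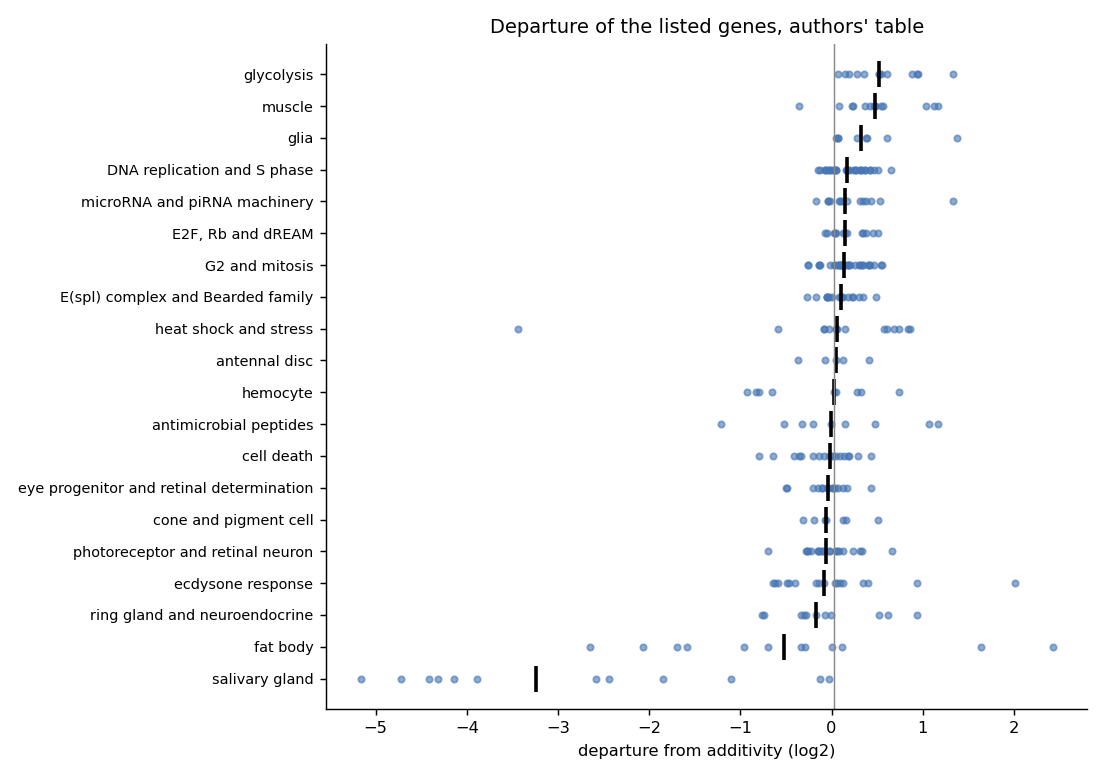
Departure from additivity in log2 units (x axis) of each listed gene of the authors' deposited table (points) with the list median (black bar), for 20 lists, and the median of all genes, 0.03, as a grey line. The salivary gland list lies apart at a median of -3.24, followed by the fat body list at -0.52, and glycolysis and muscle genes lie highest at 0.52 and 0.47.

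The response to miR-11 was set beside the difference it made on top of dE2F1,dDP, which shares no array with miR-11 over WT. With miR-11 alone, 60 genes were called over WT in the authors' deposited table (0.452%), 9 of which had the same call in each transgenic genotype. Of the other 51 in the authors' deposited table, 10 kept at least 50% of their change when miR-11 was added to dE2F1,dDP, 24 kept less and 17 had the opposite sign. The 40 genes called higher in this set had a median difference of 0.08 when miR-11 was added to dE2F1,dDP, against 2.12 over WT, in the authors' deposited table. The 11 called lower had medians of -0.92 and -1.63 in the same order in the authors' deposited table. These genes, like those taken up next for dE2F1,dDP, were picked for their change over WT, and the part of that choice in the smaller differences was not tested.

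A pair of genes carried the miR-11 rise into both backgrounds almost whole. CG18278 gained 3.93 when miR-11 was added to dE2F1,dDP and 3.58 over WT, and CG9150 gained 3.51 and 4.2 in the authors' deposited table. The cytochrome P450 gene Cyp6a13 gained 1.54 and 1.93 in the same order in the authors' deposited table. One that fell, Hsp70Ba, a heat shock chaperone gene, changed by -1.19 and -1.93 in the authors' deposited table. These 4 genes are given as contrast and were chosen after their values were seen.

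On the arrays, 29 probe sets were called for miR-11 over WT (0.155%), of which 7 were shared by all transgenic genotypes. Of the other 22, 20 had the same sign when miR-11 was added to dE2F1,dDP, 9 kept at least 50% of the size and 6 were called there too, where 7 were called in all (0.0373%). Over all probe sets 52.1% had the same sign in both. The 22 include 4 of the 9 departures from additivity.

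The response to dE2F1,dDP was set beside the difference it made on top of miR-11 in the same way. With dE2F1,dDP alone, 46 genes had a call over WT in the authors' deposited table (0.346%), and 9 of these were shared. On the arrays 10 probe sets were called for all the transgenes over miR-11 (0.0533%). Of the 12 called for dE2F1,dDP over WT, 7 were shared, and 2 of the other 5 had the same sign on top of miR-11, 1 of them called. Of the 20 others called lower in the authors' deposited table, 15 kept at least 50% of the fall when dE2F1,dDP was added to miR-11, with medians of -1.25 there and -1.58 over WT. Of the 17 called higher, 6 did so, with medians of 0.38 and 1.65 in the authors' deposited table. Those that kept it included Dp, CG14545 and pr-set7 (now Set8, a histone methyltransferase gene), and falls that kept it included CG13840 (-3.05 and -2.78) and CG9021 (-2.04 and -2.92) in the authors' deposited table.

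With all the transgenes, 113 genes had a call in the authors' deposited table (0.851%), 82 of them lower (0.617%), and 63 of them, 17 higher and 46 lower, were called with neither part alone. Of these 63, 13 departed upward and 11 downward by at least 1, and 24 lay within 0.5 of additivity in the authors' deposited table. Over all genes there, 1.3% departed by at least 1 and 92.6% lay within 0.5. The 63 were picked by the same changes that make up the departure, a choice that itself favours departures, and its part was not tested.

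Some genes that departed by at least 1 were neighbours in a gene order taken from RefSeq's Release 6 assembly. The order held only the 12020 genes matched to a single RefSeq gene, so other genes can lie between neighbours. Of 161 departing genes placed in it, 17 stood next to another with the same sign, in 8 runs, all of them negative. The runs included Sgs7 with Sgs8, Sgs4 with Pig1, and Sgs5 with CG7587 (now Sgs5bis). Further runs were ng1 and ng3 with CG14265, and CG14332 with CG33333. How many such neighbours would arise among any genes of that number was not tested.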

How the data were processed

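The authors deposited log2 expression values per Affymetrix probe set for 12 arrays, and affy is named in the submitters' processing notes; how background, normalization and probe summary were set is not stated there. The labels give 100 ng of total RNA per cRNA preparation. A second table of the authors gives, per the file headers, average log2 fold changes of 3 genotypes over WT, rank product p-values and pfp, a score for the expected proportion of false positives, for 13281 genes. No array was identical to another (pairwise r 0.927 to 0.995). Array 25th percentiles lay between 3.75 and 3.97 and medians between 4.71 and 4.90, and precision is limited by the number of arrays.

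The deposited values entered a linear model per probe set in limma 3.58.1 (R 4.3.3, moderated by eBayes, two-sided tests) that had the 4 genotypes and no covariate, after 183 Affymetrix control probe sets were left out, and the fit was tested on simulated data. The interaction and 5 simple differences were adjusted by Benjamini-Hochberg over 18769 probe sets. Genes used the difference of the deposited log2 fold changes. Genes were named by rule: the 10 largest departures each way among genes called at pfp under 0.05 without a shared change, up to 5 each way with one, the transgene genes E2f and Dp, the marker w, the death genes rpr, W, skl and grim, and list members beyond 1. Probe sets were limited to 2 each way. Members and the 20 gene lists were chosen with earlier results of these data known, and lists got no test. List members whose symbol has several entries in the table were left out of list counts. Symbols are the table's; 12020 matched a single RefSeq gene for current names. No sequence is shown. Replicate numbers were not taken to pair arrays, since 6 of 18 same-number pairs correlated above 0.1 in their deviations. Alternatives were scaling, a filter on dim probe sets, an intensity trend, array weights, linear values, a replicate block, each array left out, and, added after seeing the data, the first principal component as a covariate.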

Additional observations from a re-analysis of the deposited data

Results flagged for a closer look

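The effect of miR-11 differed with and without dE2F1,dDP by the interaction test in 9 probe sets. Upward departures were 4.29 for 1624543_s_at, 4.23 for 1629242_x_at, and 3.70, 3.48, 3.32 and 1.69 for the others. Downward departures were -4.16 for 1628052_at, -2.65 for 1631349_s_at and -2.33 for the last. Genotypes of 3 arrays are too few to look for an outlying array by a formal rule.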

How the results depend on the processing

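The 9 calls became 10 under quantile normalization, 7 with arrays centred on their medians, 10 without dim probe sets, 8 with an intensity trend, 9 with the replicate block and 10 at an adjusted p under 0.1. The count was 3 on linear values, where additivity is a sum of signals, 37 with the first principal component as a covariate (added after seeing the data), and 1747 with array weights, whose estimate stopped before it converged and ran from 0.137 to 165; the cause was not tested. Leaving out each array gave 7 to 16, the 16 without miR-11 replicate 1, and 7 of the 9 were called each time. Shared departures then numbered 3 to 4, those at the floor 1 to 4 and the remaining 3 to 9. Over the settings other than linear values, 1628052_at, 1624543_s_at and 1629242_x_at were called each time, with the adjusted p up to 0.00156, 0.0139 and 0.0288. On linear values the adjusted p was 0.00855 for the first, 0.289 for the second and 1.0 for the third. 1631349_s_at lost its call in 10 of 20 settings, with an adjusted p up to 0.0716 outside linear values. The block changed no call of these 4. The 203 large departures became 190 to 483 when an array was left out. They rose by over 1.5 times without miR-11 replicate 1 (483), WT replicate 1 (386), dE2F1,dDP replicate 3 (362) or miR-11 replicate 3 (332), and numbered 244 without dE2F1,dDP replicate 1 and miR-11 replicate 2 together. A departure of 1.5 or more was found for 82 genes in the authors' deposited table, and 9 were shared when sharing was read from pfp. Over all probe sets, the difference made by miR-11 on top of dE2F1,dDP correlated with that over WT at r = 0.10, from -0.041 (without dE2F1,dDP replicate 2) to 0.20, and at -0.021 without miR-11 replicate 3. The dE2F1,dDP difference correlated at 0.57 between backgrounds, from 0.17 to 0.65, and at 0.092 with the component as a covariate. Table values could not be recomputed without single arrays.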
